A study of Mus musculus with 275 samples.

Results

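The 41 arrays of the F2 High line, out of 275 arrays in the series, fell into 2 sets by the signal of a single probe, for Thumpd1. In 19 arrays the Thumpd1 probe (ILMN_2722488) had a log2 intensity of at most 9.02, and in 22 arrays one of at least 10.28, with no array in the gap between. These are called the Thumpd1-low and the Thumpd1-high arrays below. They are sets defined from the measured values of this probe and are not groups named by the labels. The 15299 other expressed probes were compared between both sets to find transcripts that moved with Thumpd1 inside this line.

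Each array held total RNA from the striatum of 1 mouse. The F2 mice descended from an intercross of the inbred strains C57BL/6J and DBA/2J and were bred over several generations for a strong (High) or weak (Low) cataleptic response to haloperidol, a blocker of dopamine D2 receptors. The F2 High line was given by 41 arrays and the F2 Low line by 42. The other arrays came from the same kind of selection in HS4, a stock crossed from C57BL/6J, DBA/2J, BALB/cJ and LP/J (96 arrays), and in HS-CC, a stock made from the founder strains of the Collaborative Cross (96 arrays). For the F2 and HS-CC mice the labels give neither the sex nor the age, litter or drug exposure of single animals. The HS4 labels add a letter M or F and a further code that is not explained, and neither was used here. In each stock, 1 selection in each direction was made, so High and Low may differ by chance fixation as well as by the selected response. Mice of 1 line come from a limited number of families, so the animals of a set may be close relatives, and the p-values below treat them as independent.

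Thumpd1 encodes an RNA-binding protein with a THUMP domain that serves as an adaptor of the acetyltransferase Nat10, which together acetylate cytidine in serine and leucine transfer RNAs. In an intercross, neighbouring genes on a chromosome are inherited together in long blocks, so that transcripts with a variant nearby can rise and fall together between animals. The striatum is the main target of haloperidol for catalepsy, and most of its neurons are spiny projection neurons with dopamine D1 or D2 receptors.

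The split rests on 1 oligonucleotide, so its sequence is shown. The array carries 1 probe for Thumpd1, of 50 bases, and the first 30 bases, as encoded in the probe identifier that the study lists, are printed here.
Thumpd1 probe, bases 1 to 30: gtccctactggctatttgccagttgtacag

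In the Thumpd1-low arrays the Thumpd1 level ran from 8.82 over a median of 8.91 to 9.02 on the log2 scale. In the Thumpd1-high arrays it ran from 10.28 over a median of 10.60 to 11.34. The probe was above background, set on each array at the 95th percentile of its 1341 probes for chemosensory receptors (smell, pheromones and taste), on 0 of 19 Thumpd1-low arrays and on 22 of 22 Thumpd1-high arrays. The low values are therefore only an upper bound of the probe signal. The Thumpd1-high mean of 10.64 was at least 3.02-fold above the background level of the low arrays. These values chose the sets and are given as a description with no test. Thumpd1 levels here and below are signals of this probe. Whether a sequence difference between the parent strains under this probe lowers its signal without a change in Thumpd1 RNA was not tested.

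Across all 83 F2 arrays the Thumpd1 values formed 3 separate levels, split by gaps of 1.26 and 0.32 on the log2 scale. The lower level held 19 F2 High and 2 F2 Low arrays. The middle level held 21 F2 High arrays (10.28 to 10.83) and 16 F2 Low arrays (10.40 to 10.74), and the upper level held 1 F2 High array (11.34) and 24 F2 Low arrays (11.15 to 11.73). The Thumpd1-high set is thus the middle level plus 1 array of the upper level. Both lines shared all 3 levels, and the lower level was mostly of the High line and the upper level mostly of the Low line.

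**Figure D1:**
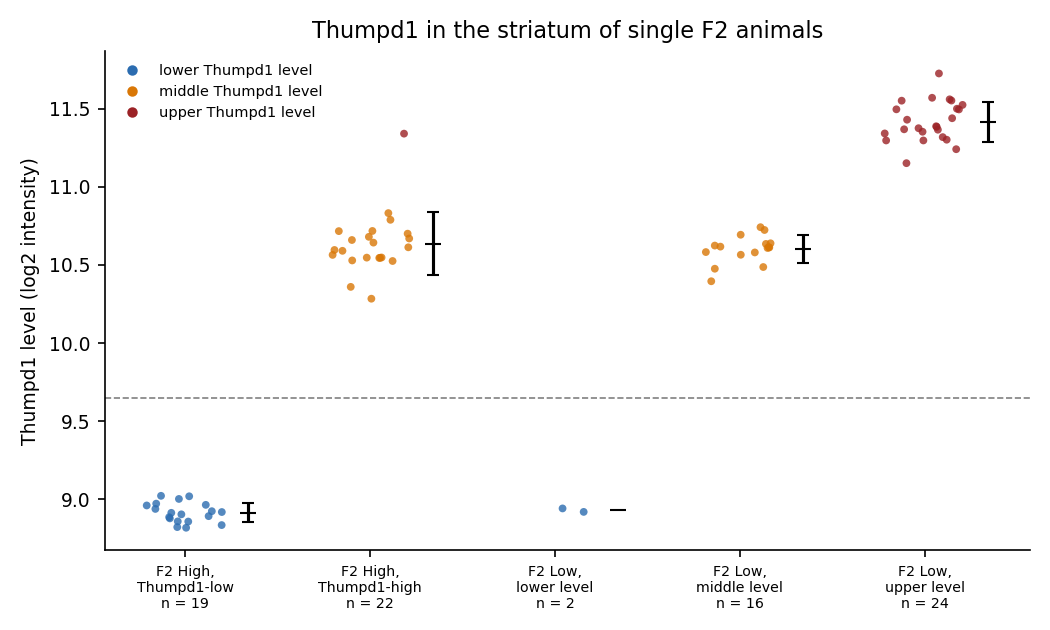
Thumpd1 level (log2 intensity, vertical axis) of each F2 array, 1 point per animal, in the Thumpd1-low and Thumpd1-high arrays of F2 High and in F2 Low divided by the 3 Thumpd1 levels (colours). Black bars give the mean ± SD (mean alone for the 2 arrays of F2 Low at the lower level) and the dashed line is the threshold inside the empty gap of 1.26 log2 units between 9.02 and 10.28.

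Probes were tested with limma on the deposited log2 values, with Benjamini-Hochberg adjustment over all 15299 probes and a false discovery rate of 0.1. The difference between the sets had a median standard error of 0.038, or a median 95% half-width of 0.076 log2 units without adjustment. Differences under that size were not detectable for most probes. A call after adjustment took a larger difference at the same standard error, and the weakest call below had an unadjusted limma p of 1.05e-05. Differences well above 0.076 may therefore have gone uncalled. Quality and tissue makeup of both sets are given after the calls.

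Rps15a, Tmc7 and Wbp1l were lower in the Thumpd1-low arrays, and no probe was called higher. These 3 of 15299 probes made up 0.0196% of those tested. Rps15a and Tmc7 lie close to Thumpd1 on chromosome 7, 13 and 9 expressed genes away on the proximal side, and Wbp1l lies on chromosome 19. At an unadjusted p below 0.05 there were 1191 probes (7.78% of all), with 4.43% of all probes lower and 3.36% higher in the Thumpd1-low arrays. With the Thumpd1 level as a number in place of the sets, 4 probes passed (0.0261%), these 3 among them. The sets overlapped for every probe other than Thumpd1: 0 of 15299 had all arrays of one set beyond all arrays of the other. Differences were small throughout, and 1.01% of the probes differed by more than 0.2 log2 units.

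Rps15a encodes a protein of the small ribosomal subunit. Its level (ILMN_2717621, the only Rps15a probe) ran from 9.57 over a median of 9.75 to 9.94 in the Thumpd1-low arrays and from 9.66 over a median of 10.01 to 10.47 in the Thumpd1-high arrays. All 19 low arrays lay below the median of the high arrays, and 5 lay below every high array. The means were 9.75 ± 0.10 (SD, n = 19) and 10.02 ± 0.17 (SD, n = 22), a difference of -0.27 ± 0.04 (SE) on the log2 scale (limma, adjusted p = 0.00507). In linear terms the low arrays stood at 0.831 of the high arrays. Ribosomal protein genes have many near-identical processed copies in the mouse genome, and whether this probe reads one of them was not tested.

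Tmc7 belongs to the transmembrane channel-like family. Its level (ILMN_2501267) ran from 9.41 over a median of 9.72 to 9.89 in the Thumpd1-low arrays and from 9.60 over a median of 9.95 to 10.37 in the Thumpd1-high arrays. Again all 19 low arrays lay below the high median, and 6 lay below every high array. The means of 9.69 ± 0.13 (SD, n = 19) and 9.96 ± 0.18 (SD, n = 22) differed by -0.27 ± 0.05 (SE; limma, adjusted p = 0.0165), or to 0.829 in linear terms. A further Tmc7 probe (ILMN_2482722) did not pass the filter on expressed probes, so the call rests on 1 probe.

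Wbp1l encodes a membrane protein that binds WW domains. Its level (ILMN_2416424) ran from 11 over a median of 11.18 to 11.28 in the Thumpd1-low arrays and from 11.17 over a median of 11.29 to 11.52 in the Thumpd1-high arrays. All 19 low arrays lay below the high median and 9 below every high array. The means of 11.17 ± 0.07 (SD, n = 19) and 11.30 ± 0.09 (SD, n = 22) differed by -0.13 ± 0.03 (SE; limma, adjusted p = 0.0537). This call was the least stable of the 3. It was lost with a sex term (limma, adjusted p = 0.188), with terms for choroid plexus and cortex markers (0.118) and with an intensity trend (0.34). It was also lost with all 83 F2 arrays in 1 fit (0.134) and without the 1 array at the upper Thumpd1 level (0.111). Its size stayed between -0.13 and -0.12, which the intensity trend and the fit of all 83 arrays cannot change.

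Rps15a lost its call in the fit of all 83 F2 arrays (limma, adjusted p = 0.134), which left Tmc7 as the 1 called probe there. The size of a difference cannot change in that fit, because each set keeps its own mean. With weights for array quality the count rose to 361 probes, 190 lower and 171 higher, which included all 3.

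**Figure D2:**
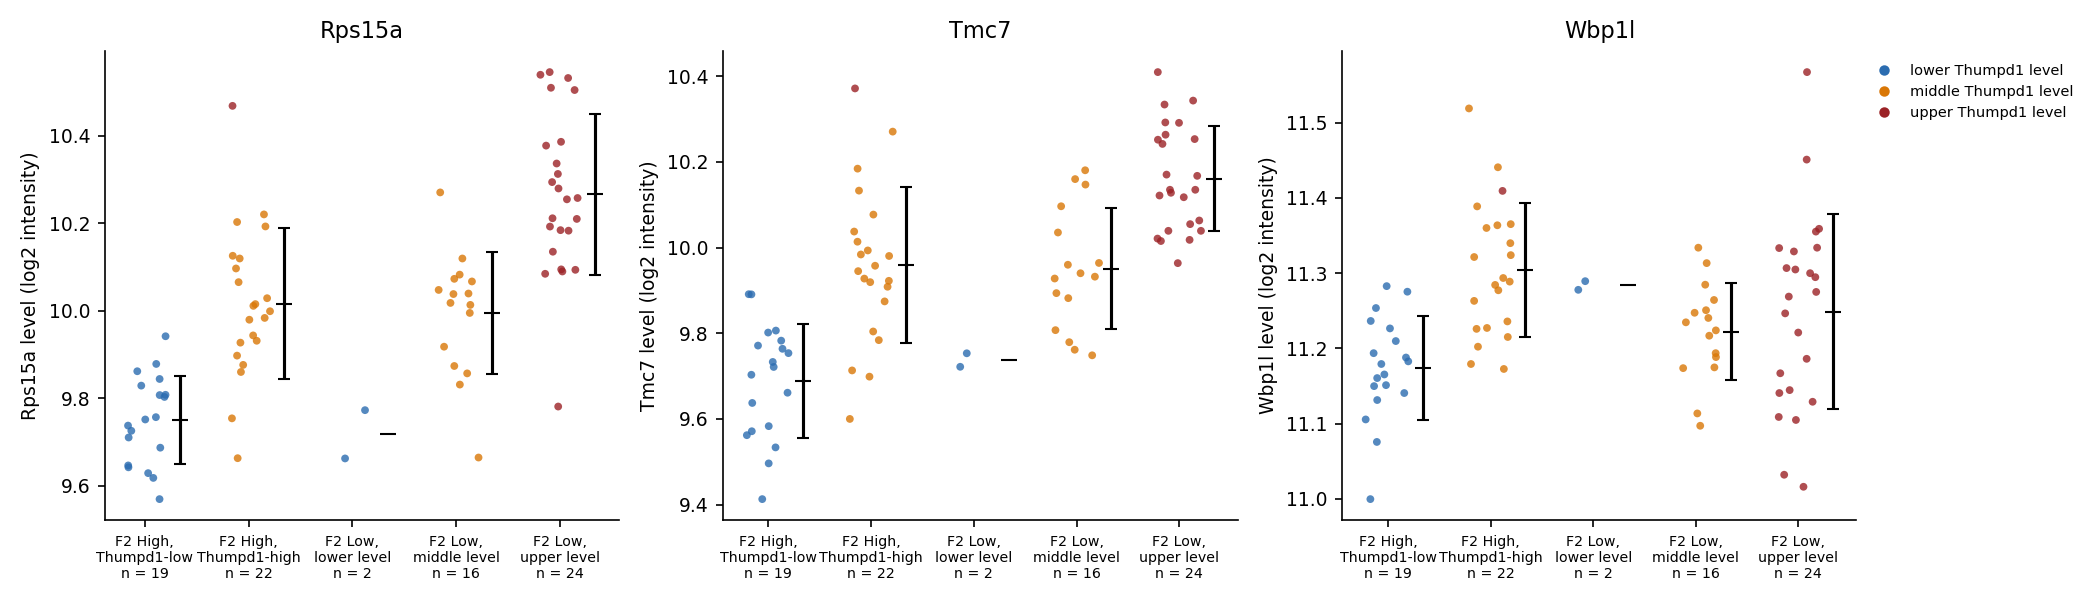
Levels of Rps15a, Tmc7 and Wbp1l (log2 intensity, vertical axes that do not start at 0) of each F2 array, 1 point per animal, coloured by Thumpd1 level, with the mean ± SD in black (mean alone for 2 arrays). Rps15a and Tmc7 step up with the Thumpd1 level in F2 High and in F2 Low, from means of 9.75 and 9.69 in the Thumpd1-low arrays to 10.27 and 10.16 at the upper level of F2 Low, and Wbp1l has means between 11.22 and 11.28 at all 3 levels of F2 Low.

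Inside the Thumpd1-high set Tmc7 had a positive correlation with the Thumpd1 level, and that of Rps15a rested on 1 animal. None of these correlations was tested. Across the 22 Thumpd1-high arrays the Pearson correlation of Tmc7 with Thumpd1 was 0.68 (Spearman 0.51), and 0.53 (0.44) in the 21 left without the upper-level array. For Rps15a it was 0.45 (0.15), and -0.01 (0.02) without that array. For Wbp1l it was 0.35 (0.24), and 0.24 (0.15) without it. In the Thumpd1-low arrays the Thumpd1 probe was at background, so no correlation with it is given there. Between Rps15a and Tmc7 the Pearson correlation was 0.03 within the low set and 0.17 within the high set, or -0.18 without the upper-level array. These values are a description across animals of one line that share array processing.

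The genes that flank Thumpd1 differed in how they behaved. Of the 10 genes with an expressed probe on either side, 29 probes were tested, of which 1 (Tmc7) passed the threshold and 7 had an unadjusted p below 0.05 (24.1%, against 7.78% of all probes). Of these 7, 4 were lower and 3 were higher in the Thumpd1-low arrays. The genes at positions 11 to 25 gave 10 of 37 probes (27.0%), those at positions 26 to 50 gave 10%, 51 to 100 gave 14.6%, 101 to 200 gave 9.06%, and those farther away 8.02%. Within the nearest 25 genes the share was 14 of 30 probes (46.7%) on the proximal side and 3 of 36 (8.33%) on the distal side. Chromosome 7 as a whole had 111 of 1064 probes (10.4%), all other chromosomes together had 7.45%, and chromosome 12 had 62 of 488 (12.7%).

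**Figure D3:**
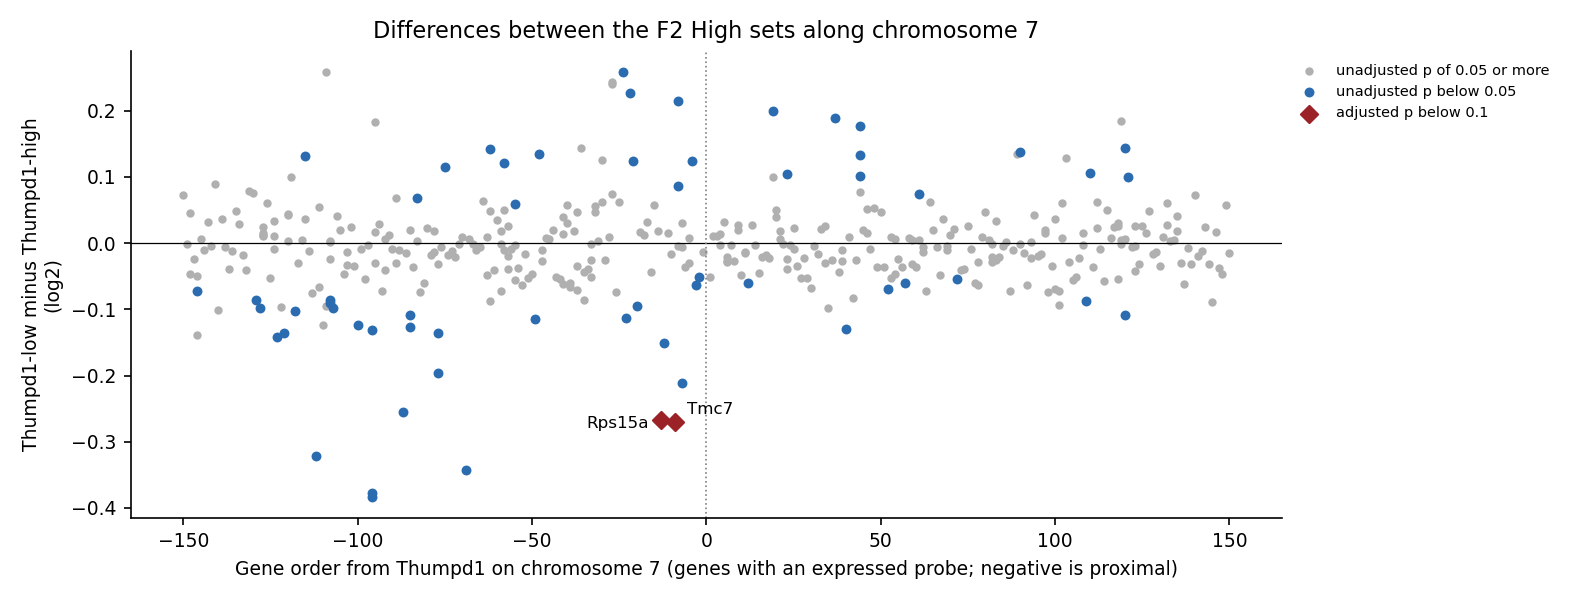
Difference between the Thumpd1-low and Thumpd1-high arrays of F2 High (log2, vertical axis) for each expressed probe against the position of its gene in the order of genes from Thumpd1 on chromosome 7 (horizontal axis, negative is proximal). Rps15a and Tmc7 (red diamonds, adjusted p below 0.1) stand at -0.27, and more probes with an unadjusted p below 0.05 (blue) lie among the 25 nearest genes on the proximal side (14 of 30) than on the distal side (3 of 36).

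On the proximal side, values went in both directions. Gprc5b, an orphan G protein-coupled receptor 4 genes away, had a mean of 9.79 ± 0.11 (SD) in the Thumpd1-low and 9.66 ± 0.12 (SD) in the Thumpd1-high arrays, a difference of 0.12 ± 0.03 (SE) that did not pass (limma, adjusted p = 0.377). Gde1, a glycerophosphodiester phosphodiesterase 8 genes away, gave 0.21 ± 0.07 (SE; adjusted p = 0.588) with probe ILMN_2634264, whose lowest value in the Thumpd1-high arrays (11.89) lay far under the median there (13.04), while its other probes gave -0.00 and 0.09. The probes of this gene thus did not move alike. Ccp110, a centriolar protein 7 genes away, showed the same split among its probes, with -0.21 ± 0.07 (SE; adjusted p = 0.575) for ILMN_3006575 and 0.03 and -0.01 for the other probes. Gpr139, an orphan receptor, gave -0.06 and Acsm1, a medium-chain acyl-CoA synthetase, gave -0.05, both with set means of at most 9.08, close to the background level. Coq7 of ubiquinone synthesis (-0.02), Vps35l (-0.04), Knop1 (-0.03 and 0.01) and Acsm4 (-0.01) differed by no more than 0.04.

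On the distal side all 10 nearest genes differed by no more than 0.05 and none passed the test. Crym, a thyroid hormone-binding crystallin 5 genes away, had levels from 12.28 over 12.68 to 13.28 in the Thumpd1-low arrays and from 12.28 over 12.68 to 13.12 in the Thumpd1-high arrays, which covered nearly the same range. Its difference was 0.03 ± 0.07 (SE; limma, adjusted p = 0.924). The other values were -0.05 for the exonuclease Eri2, 0.01 for Dcun1d3 and Lyrm1, -0.00 and 0.01 for Tmem159, and -0.02 to -0.03 for the 3 probes of Abca15. Uqcrc2 of respiratory complex III gave -0.00, the kinase Eef2k -0.03, Polr3e of RNA polymerase III 0.03 and 0.02, and Cdr2 -0.05.

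No gene of the transfer RNA modification machinery passed the test. Of 76 genes listed, 58 had an expressed probe, giving 93 probes with a median difference of -0.00 and a range from -0.10 to 0.14. At an unadjusted p below 0.05, 3 probes were lower and 3 higher, or 6 of 93 beside 7.78% of all probes. Nat10, the enzyme that Thumpd1 assists, had means of 9.02 in both sets (difference -0.00 ± 0.02, SE). Both means lay close to the background level, so this probe cannot show whether Nat10 RNA differed between the sets. The 3 smallest p-values each had a limma adjusted p of 0.588. The first was Tprkb (ILMN_2811240), a subunit of the complex that makes threonylcarbamoyl adenosine (-0.10 ± 0.04, SE). The next were Trmt1l (ILMN_2697918), a relative of a guanosine methyltransferase (-0.10 ± 0.04), and Dus4l, a dihydrouridine synthase (-0.08 ± 0.03). The other Tprkb probes gave -0.05 and -0.00, and the other Trmt1l probe gave -0.08.

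No probe of the lists for spiny neurons and dopamine signalling passed the test after adjustment. Of 48 probes for dopamine receptors and cAMP signalling, from 33 genes, 12 had an unadjusted p below 0.05 (25%, beside 7.78% of all probes), 7 of them lower and 5 higher in the Thumpd1-low arrays. The median difference of this list was -0.01, in a range from -0.30 to 0.23. Of 17 spiny neuron probes, from 12 genes, 3 had an unadjusted p below 0.05 (17.6%), all lower. The median was -0.07, in a range from -0.23 to 0.10. This list shares members with the dopamine list, Pde10a among them, so both shares count some of the same genes. The median over all probes was -0.00. None of the 8 probes of the direct pathway (median -0.03), the 3 of the indirect pathway (-0.04) or the 12 of immediate early genes (-0.02) reached an unadjusted p below 0.05. The member with the smallest p of the dopamine list was Arrb1, beta-arrestin 1, which lies on chromosome 7 (-0.09 ± 0.03, SE; limma, adjusted p = 0.559). That of the spiny neuron list was Pde10a, a cyclic nucleotide phosphodiesterase, with -0.23 ± 0.10 (SE; adjusted p = 0.608). In the direct and indirect pathway lists the smallest p fell to Pdyn (0.11) and Sp9 (0.07), which went against their list's median, and among immediate early genes to Jun (-0.05). As a check of the tissue, the mean log2 level of the spiny neuron markers lay between 11.94 and 12.63 in the Thumpd1-low and between 11.92 and 12.64 in the Thumpd1-high arrays, while the background level of the low arrays reached at most 9.16.

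Neither the marker lists of other cells nor the measures of array quality passed a test between the sets. Over 17 measures, with 2-sided permutation tests of the means over 100000 resamples, the smallest p was 0.0608 for endothelium (means of 10.20 and 10.24) and every adjusted p was 0.951. The choroid plexus level ran from 9.10 over a median of 9.35 to 10.47 in the low and from 9.12 over 9.42 to 11.11 in the high arrays. The level of cortical glutamatergic neuron markers ran from 9.44 over a median of 10.60 to 11.03 in the low and from 9.49 over 10.23 to 11.06 in the high arrays. Both levels varied widely in both sets, and the upper end for choroid plexus was reached by high arrays only. The median difference was 0.12 over the 6 cortical probes (range 0.02 to 0.31) and -0.05 over the 8 choroid plexus probes (-0.49 to 0.01). It was -0.00 over the 15 astrocyte probes (-0.06 to 0.07), 0.02 over the 16 oligodendrocyte probes (-0.17 to 0.16) and -0.04 over the 10 microglia probes (-0.07 to 0.09). The 8 endothelium probes (-0.10 to -0.02) had a median of -0.03 and the 8 probes of leptomeninges (-0.19 to -0.01) one of -0.04. Apart from the red cell list, given below, only the oligodendrocyte list held a probe with an unadjusted p below 0.05 (Mobp, -0.17), and no probe of these lists passed. The smallest p of the others fell to Slc1a2 (astrocyte, 0.06), Tmem119 (microglia, -0.07), Slc2a1 (endothelium, -0.10), Kcne2 (choroid plexus, -0.07), Neurod6 (cortical neuron, 0.06) and Slc6a13 (leptomeninges, -0.06).

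Probes above background made up 54.4% ± 4.5 (SD, n = 19) of the low and 53.2% ± 6.6 (SD, n = 22) of the high arrays. One array, of the Thumpd1-high set, stood apart with a mean correlation of 0.912 to the other arrays, and without it the same 3 probes were called. Sex, read from the Y-linked transcript Eif2s3y, was male in 12 of 19 Thumpd1-low and 7 of 22 Thumpd1-high animals (Fisher's exact test, 2-sided p = 0.063). With a sex term Rps15a and Tmc7 remained called.

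Of the 4 red cell probes, 1 was lower and 1 higher in the Thumpd1-low arrays at an unadjusted p below 0.05 (50%, beside 7.78% of all probes). None passed after adjustment. Hbb-b2, a beta-globin gene of chromosome 7, ran from 8.93 over 9.78 to 10.74 in the Thumpd1-low and from 8.83 over 9.30 to 10.07 in the Thumpd1-high arrays. The sets overlapped widely and differed by 0.46 ± 0.13 (SE; limma, adjusted p = 0.362). The probe annotated to Hbb-bt, also a beta-globin symbol of chromosome 7, went the other way, by -0.34 ± 0.13 (SE; limma, adjusted p = 0.588). In F2 Low, Hbb-b2 fell with Thumpd1, with a slope of -0.56 ± 0.10 (SE; adjusted p = 0.00578), and Hbb-bt had a slope of 0.26 (adjusted p = 0.735). Sequences under both symbols are near-identical, but their probes went in opposite directions in both lines. Whether the probes share signal, or whether the parent strains differ in these genes, was not tested. The mean over the 4 red cell probes was 10.45 ± 0.26 in the low and 10.37 ± 0.32 in the high arrays.

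The F2 Low line was not used for the split and gives a separate reading of the same relation. There, the level of each probe was fitted on the Thumpd1 level over 42 animals, and 26 of 15299 probes (0.17%) passed, 18 of them on chromosome 7. Rps15a rose by 0.24 ± 0.04 (SE) log2 units per log2 unit of Thumpd1 (limma, adjusted p = 0.00272) and Tmc7 by 0.19 ± 0.03 (SE; adjusted p = 0.00272). Wbp1l was not called, with a slope of 0.01 ± 0.03 (SE; adjusted p = 0.933). Its slope in F2 High was 0.08 ± 0.01 (SE), and the difference between the lines, 0.07 ± 0.03 (SE), had an unadjusted p of 0.0251 and an adjusted p of 1.00 over all probes. In the test of the difference between the lines, 0 of 15299 probes passed (limma; 647 at an unadjusted p below 0.05, or 4.23%).

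By level, the F2 Low arrays repeated the order seen in F2 High for both chromosome 7 genes. Rps15a averaged 9.995 ± 0.14 (SD) in 16 animals of the middle level and 10.27 ± 0.18 in 24 of the upper level, and stood at 9.66 and 9.77 in the 2 animals of the lower level. Tmc7 averaged 9.95 ± 0.14 and 10.16 ± 0.12, and stood at 9.72 and 9.75. The Thumpd1-high arrays of F2 High, with means of 10.02 and 9.96, were close to the middle level of F2 Low for both genes. Without the 2 lower-level animals 14 probes were called (0.0915%), and Rps15a (slope 0.29, adjusted p = 0.0847) and Tmc7 (0.23, adjusted p = 0.0847) were among them.

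Other genes of chromosome 7 tracked Thumpd1 in F2 Low without passing in F2 High, and are named here after their values were seen. Mrpl48, of the large mitochondrial ribosomal subunit and 96 genes away, had slopes of 0.46, 0.42 and 0.19 with its 3 probes in F2 Low (limma, adjusted p = 2.99e-05, 0.00014 and 0.00597). In F2 High its strongest probe (ILMN_1216122) ran from 10.30 over 10.46 to 11.52 in the Thumpd1-low and from 10.33 over 11.01 to 11.52 in the Thumpd1-high arrays. Both sets spanned the same range and differed in how many animals lay at its lower end, with a difference of -0.38 ± 0.10 (SE; adjusted p = 0.353). Dgat2, an enzyme of triglyceride synthesis 112 genes away, had a slope of 0.33 ± 0.06 (SE; adjusted p = 0.00774) in F2 Low and a difference of -0.32 ± 0.08 (SE; adjusted p = 0.353) in F2 High. Pgap2, which acts in the maturation of lipid-anchored proteins, gave slopes of 0.16 and 0.19 with its 2 probes and differences of -0.14 and -0.20 (adjusted p = 0.456 and 0.202). Without the lower-level animals the slopes of Dgat2 (adjusted p = 0.142) and of Pgap2 with ILMN_1235347 (0.18) were no longer called.

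Crym was called in F2 Low, with a slope of 0.32 ± 0.07 (SE; limma, adjusted p = 0.0389), against -0.03 in F2 High. Its means in F2 Low were 12.65 at the middle and 12.92 at the upper level. The difference of the slopes, -0.34, had the unadjusted p of 5.55e-05 and an adjusted p of 0.561, so it did not pass over all probes. Without the 2 lower-level animals the slope was 0.36 and was not called (adjusted p = 0.308).

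**Figure D4:**
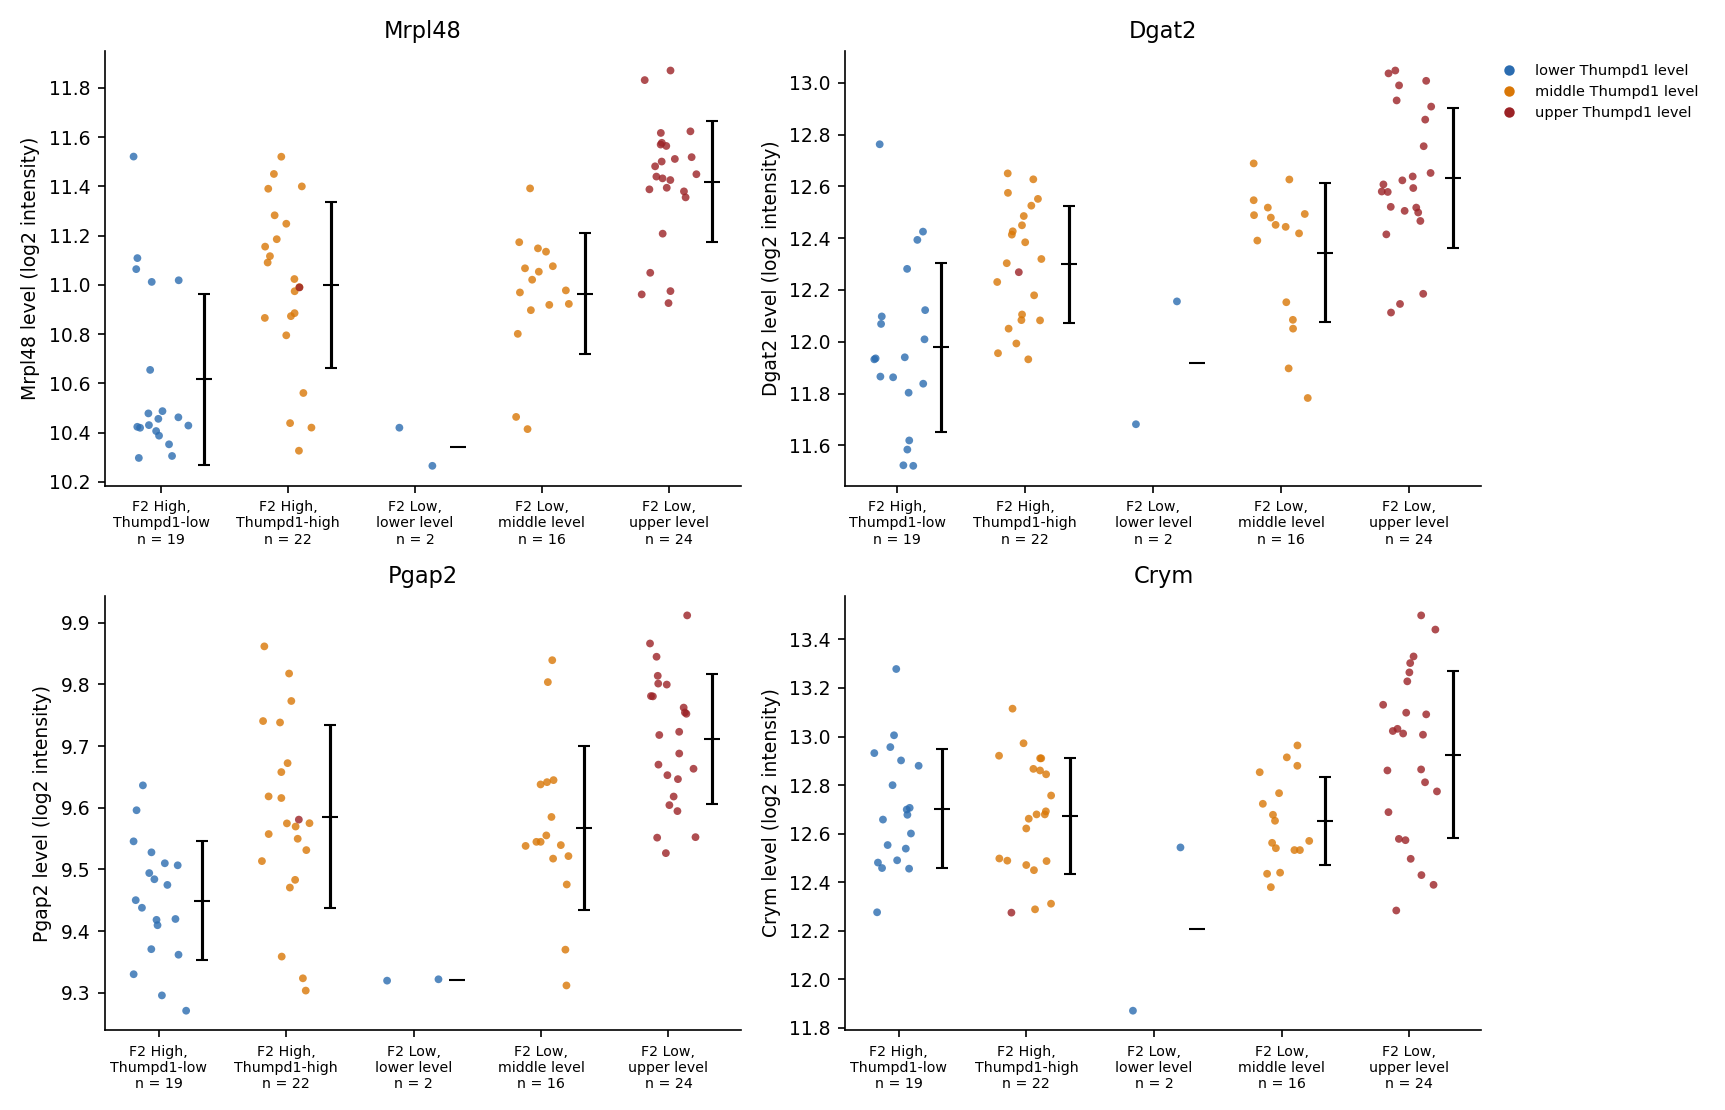
Levels of Mrpl48, Dgat2, Pgap2 and Crym (log2 intensity, vertical axes that do not start at 0; for each gene the probe with the smallest p in F2 Low) of each F2 array, 1 point per animal, coloured by Thumpd1 level, with the mean ± SD in black (mean alone for 2 arrays). All 4 genes are highest at the upper level of F2 Low (means of 11.42 for Mrpl48 and 12.92 for Crym), and the 2 F2 High sets have nearly the same Crym mean (12.70 and 12.67).

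In the HS-CC stock, fitted on its own with a term for the line, 20 of 15118 probes passed (0.132%), 7 of them on chromosome 7, and the slopes of both genes had the opposite sign. Rps15a fell by 0.21 ± 0.04 (SE) per log2 unit of Thumpd1 (limma, adjusted p = 0.0213) and Tmc7 by 0.18 ± 0.04 (SE; adjusted p = 0.0563), over Thumpd1 levels from 9.09 to 11.56. Gde1 (ILMN_2634264) rose by 0.42 ± 0.05 (SE; adjusted p = 3.63e-09), against -0.13 in F2 High. The difference of the slopes was tested directly, and 7 of 14546 probes passed (0.0481%). They included Rps15a (0.37 ± 0.06, SE; adjusted p = 7.04e-06), Tmc7 (0.35 ± 0.06; 1.94e-05) and Gde1 (-0.55 ± 0.07; 4.41e-09). The others, named after their values were seen, were Rnf126, Apbb1, Cibar1 and Rccd1. Without the 1 outlying HS-CC array, 35 probes passed for the slope and 21 for the difference of the slopes, with Rps15a and Tmc7 called in both.

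In HS4, 0 of 15218 probes passed (limma; 1180 at an unadjusted p below 0.05, or 7.75%), and the slopes of Rps15a (-0.02 ± 0.05, SE), Tmc7 (-0.02 ± 0.04) and Wbp1l (-0.02 ± 0.04) were near 0 (adjusted p of 0.933, 0.915 and 0.913). Thumpd1 itself ranged from 8.97 to 11.78 there, and was above background on 23 of 48 HS4 High and 31 of 48 HS4 Low arrays. It was above background on 37 of 48 HS-CC High, 48 of 48 HS-CC Low, 22 of 41 F2 High and 40 of 42 F2 Low arrays. The slopes take values at background as measured levels, to a differing degree in each stock and line. Without the 4 outlying HS4 arrays 2 probes passed. The selections were normalized separately, so slopes and not levels are set side by side.

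**Figure D5:**
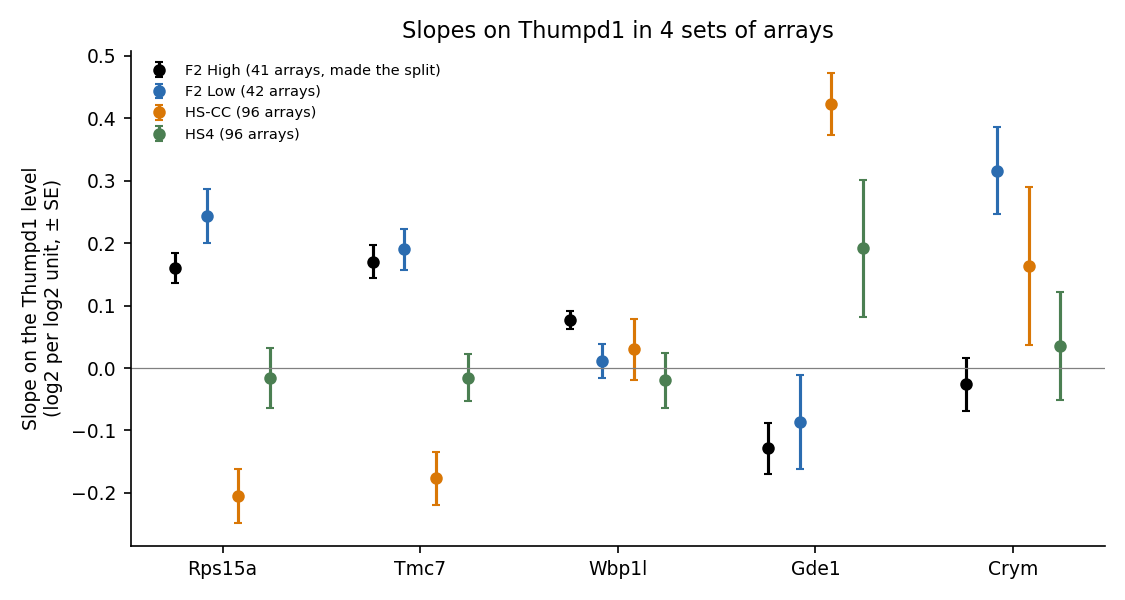
Slope of each gene on the Thumpd1 level (log2 per log2 unit ± SE, vertical axis) for Rps15a, Tmc7, Wbp1l, Gde1 (ILMN_2634264) and Crym in F2 High, F2 Low, HS-CC and HS4. Rps15a and Tmc7 have positive slopes in both F2 lines (0.16 to 0.24), negative slopes in HS-CC (-0.21 and -0.18) and slopes near 0 in HS4 (-0.02). The share of arrays with Thumpd1 above background differs between these sets of arrays.

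Set against the whole F2 Low line, more probes differed in the Thumpd1-low than in the Thumpd1-high arrays. With all 83 F2 arrays in 1 limma fit, 116 of 15299 probes (0.758%) differed between the Thumpd1-low arrays and F2 Low, 78 of them lower (0.51%), and 41 of them lay on chromosome 7. Between the Thumpd1-high arrays and F2 Low 14 probes differed (0.0915%), 0 of them on chromosome 7. Both comparisons share the 42 Low arrays, and the difference between the counts was not tested. F2 Low held 24 arrays of the upper, 16 of the middle and 2 of the lower Thumpd1 level. The Thumpd1-low arrays thus stood farther from F2 Low in Thumpd1 itself by the choice of the sets. The larger count for genes of its chromosome is therefore no separate support.

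Rps15a, Tmc7 and other chromosome 7 genes, chosen here after their values were seen, lay farther from F2 Low in the Thumpd1-low than in the Thumpd1-high arrays. Crym did not. Both differences of a gene are taken from the same F2 Low mean, so the gap between them is its difference between the F2 High sets. They describe where F2 Low lies and are no separate support for the calls. The log2 difference of Tmc7 from F2 Low was -0.37 ± 0.05 (SE) in the Thumpd1-low arrays (limma, adjusted p = 8.63e-08) and -0.10 ± 0.04 (SE) in the Thumpd1-high arrays (adjusted p = 0.599). Rps15a gave -0.39 ± 0.05 (adjusted p = 8.36e-07) and -0.12 ± 0.05 (0.568). Ccp110 (ILMN_3006575) gave -0.35 and -0.13, Dgat2 -0.51 and -0.19, and Smg1, a kinase of nonsense-mediated decay 12 genes from Thumpd1, -0.30 and -0.15, where the first value of each passed and the second did not. Hbb-bt gave -0.66 (adjusted p = 0.00885) and -0.31 (0.599). Crym gave -0.08 and -0.12, and neither passed (0.774 and 0.827).

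On chromosome 12 the Thumpd1-high arrays differed from F2 Low as well, in genes chosen here after their values were seen. Ppp1r13b, a regulator of p53-dependent transcription, gave -0.40 ± 0.07 in the Thumpd1-low (limma, adjusted p = 0.00109) and -0.46 ± 0.07 in the Thumpd1-high arrays (5.76e-05). Klc1, a kinesin light chain, gave -0.18 ± 0.06 (0.218) and -0.37 ± 0.06 (5.76e-05) with ILMN_3116826. Serpina3n, a protease inhibitor, gave 0.18 ± 0.09 (0.501) and 0.44 ± 0.09 (0.00965). Between both sets of F2 High these 3 probes differed by 0.06, 0.19 and -0.26, with none called. Wbp1l lay on either side of F2 Low, at -0.07 in the Thumpd1-low and 0.06 in the Thumpd1-high arrays, and passed in neither (adjusted p = 0.314 and 0.539).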

How the data were processed

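Total RNA of mouse striatum was measured on Illumina bead arrays with 1 array per animal. The deposited values are log2-scale intensities which the authors processed with lumi and quantile normalized within each selection, and removed outlying samples first (version and background step not given in the sources used here). Whether a variance-stabilizing step was used is not given either, so linear ratios here take the deposited values as plain log2. Of 25697 probes, 23978 had 1 gene symbol in the platform annotation, 0 had several and 1719 had none. Gene order came from the RefSeq gene table and no position was converted between builds.

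A probe counted as expressed when it exceeded the 95th percentile of 1341 chemosensory receptor probes on at least 25% of the 83 F2 arrays, or of the arrays of the stock tested. Tests used limma 3.58.1 (lmFit, eBayes, R 4.3.3) with Benjamini-Hochberg adjustment and a false discovery rate of 0.1, and were tested on simulated data. The Thumpd1 slope was fitted in F2 Low, HS-CC and HS4, each alone, and slopes were compared by interaction. The precision is limited by the number of arrays.

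The rule for named genes took all probes called, the 10 nearest genes on each side, Nat10 and the 3 transfer RNA modification genes with the smallest p, and the smallest p of each other list. The split, the members and the gene lists were chosen with earlier results of these data known. Alternatives covered the filter, outlying arrays, arrays nearest the threshold, Thumpd1 as a number, sex, marker and animal-number terms, an intensity trend, renormalization, array weights and all F2 arrays in 1 fit. Genotypes were not analysed here.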

Additional observations from a re-analysis of the deposited data

Results flagged for a closer look

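For 3 probes near Thumpd1 the slope on the Thumpd1 level differed between F2 High and HS-CC by a direct test of the difference. Tmc7 (ILMN_2501267) had a slope of 0.17 in F2 High and -0.18 in HS-CC, a difference of 0.35 ± 0.06 (SE; limma interaction, adjusted p = 1.94e-05). Rps15a (ILMN_2717621) had slopes of 0.16 and -0.21, a difference of 0.37 ± 0.06 (SE; adjusted p = 7.04e-06). Gde1 (ILMN_2634264) had slopes of -0.13 and 0.42, a difference of -0.55 ± 0.07 (SE; adjusted p = 4.41e-09), while its other probes differed by -0.04 and -0.10 and were not called. The arrays of F2 High also define the split, which used Thumpd1 and none of these probes.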

How the results depend on the processing

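The comparison of both sets called 3 probes and gave 1 with all 83 F2 arrays in the fit and 361 with array weights, and 2 to 4 under the other alternatives. The Thumpd1 slope in F2 Low gave 26 calls and 14 without the 2 arrays of the lower Thumpd1 level. The slope in HS-CC gave 20, and 35 without the outlying array. HS4 gave 0, and 2 without outlying arrays. The difference of slopes between F2 High and HS-CC gave 7, and 21 without the outlying HS-CC array. The causes were not tested. Leaving out the upper-level array, the outlying F2 Low arrays or the 2 low F2 Low arrays, leaving out the outlying HS-CC array in the difference of slopes, and comparing F2 High with F2 Low slopes were chosen after seeing the data. Other probe filters, a false discovery rate of 0.05, the intensity trend and the fit of all 83 F2 arrays cannot change the size of a difference. With these counted as well, 609 of 647 values over the 48 named probes kept their direction and side of the threshold, 7 lost the call and 5 gained it. Most of the named probes had no call to lose, and all 7 lost calls fell on Wbp1l or Rps15a, 2 of the 3 called probes. The other 26 values, of 9 probes with no call in the main or the alternative fit, changed sign and were at most 0.032 log2 units in size. With array weights these were Coq7 (0.00081), Ccp110 (0.024), Lyrm1 (-0.013), Tmem159 (0.032 and -0.018), Uqcrc2 (0.0057) and Nat10 (0.0019). Without the 4 arrays nearest the threshold they were Coq7 (0.00062), Gde1 (0.0019), Tmem159 (0.017 and -0.0034) and Nat10 (0.0084). Without outlying arrays they were Gde1 (0.0086), Ccp110 (0.0023), Tmem159 (0.0074) and Uqcrc2 (0.0023). With marker terms they were Ccp110 (0.013) and Knop1 (-0.00096), with a sex term Tmem159 (-0.011) and Uqcrc2 (0.0019), and with animal number Gde1 (0.00014) and Nat10 (0.00035). With Thumpd1 as a number they were Tmem159 (0.0030) and Nat10 (4.5e-05), and without the upper-level array Ccp110 (0.00030) and Nat10 (0.0039). The slope of Wbp1l, not called, turned to -0.0086 in F2 Low and -0.028 in HS-CC without outlying arrays. No paired analysis was possible because the numbers in the labels name single animals and F2 High and F2 Low share none. Levels at background are only bounds, and 1 probe carries each of the 3 called genes.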
